A study of Mus musculus with 32 samples.

Results

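Expression of 10 genes of the NF-kB system was measured in Lgr5-EGFP+ cells of mouse colonoids with and without bethanechol (Bch). The genes were chosen by symbol for their known roles and were looked up in the gene column of the count table, where all 10 of 10 were found among 23517 genes. They are the subunits Nfkb1, Nfkb2, Rela and Relb, the inhibitors and feedback regulators Nfkbia, Nfkbiz, Tnfaip3 and Birc3, and the chemokines Cxcl16 and Cxcl1. Colonoids are organoids of epithelium grown from crypts, and these came from the proximal colon of 8 Lgr5-EGFP-IRES-CreERT2 mice, which carry EGFP and an inducible Cre at the Lgr5 locus, so that EGFP marks stem and progenitor cells. They were kept in L-WRN medium and were either left untreated or given Bch, which activates muscarinic acetylcholine receptors, at 250 nM for 4 days, and each mouse contributed cells from both conditions. The mice formed a pair of sets of 4 with different labels. Mice BR1 to BR4 are labelled male, with sorted Lgr5+ cells as the source and the RNeasy Plus Micro kit. Mice BR7 to BR10 carry no sex label and were taken as female because 4 of the 8 mice in the series are stated to be female. Their labels name colonic organoids as the source and the RNeasy Mini kit. Sex, source and kit therefore cannot be told apart, and the sets are called by their mouse numbers here. The animals' ages were not given in the labels.

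NF-kB is a family of dimeric transcription factors held in the cytoplasm by IkB proteins. In the canonical branch, receptors for cytokines and microbial products activate the IKK kinase complex, IkBα is degraded, and dimers of RelA and p50 enter the nucleus. In the non-canonical branch, NIK and IKKα drive the processing of p100 to p52, which pairs with RelB. The targets include inhibitors that shut the pathway down again, such as IkBα and A20, and in the gut epithelium chemokines that recruit leukocytes.

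Several members are known NF-kB targets, and the sequence before their start sites was read for the binding motif. RefSeq windows of GRCm38.p6, from 250 bases before to 50 bases after a start site, were at hand for 6 of the 10 genes (Nfkb2, Rela, Nfkbia, Tnfaip3, Birc3 and Cxcl1), with 9 windows in all. The consensus motif for NF-kB sites, 10 bases long and searched on both strands, was found in 6 of these 9 windows and in 4 of the 6 genes. Among all 32851 windows, 8.46% held it, and among all genes 9.55%. The 250 upstream bases of 3 members are shown, those of the highest and the lowest member by expression and of the subunit with a match beside its start. Capitals mark matches to the motif, which may overlap on the opposite strands, and each sequence runs 5′ to 3′ on the strand of the gene.
Nfkbia, chr12:55492648-55492897, minus strand: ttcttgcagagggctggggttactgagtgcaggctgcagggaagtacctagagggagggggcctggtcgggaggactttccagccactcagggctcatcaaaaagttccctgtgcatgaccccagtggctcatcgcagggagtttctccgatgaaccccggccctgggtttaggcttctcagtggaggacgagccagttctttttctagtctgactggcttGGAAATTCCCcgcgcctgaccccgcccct
Cxcl1, chr5:90890995-90891244, plus strand: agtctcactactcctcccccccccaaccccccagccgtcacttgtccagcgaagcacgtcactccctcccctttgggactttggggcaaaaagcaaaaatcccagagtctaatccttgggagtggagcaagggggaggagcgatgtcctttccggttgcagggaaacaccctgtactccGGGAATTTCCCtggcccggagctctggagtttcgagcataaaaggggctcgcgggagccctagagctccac
Nfkb2, chr19:46304487-46304736, plus strand: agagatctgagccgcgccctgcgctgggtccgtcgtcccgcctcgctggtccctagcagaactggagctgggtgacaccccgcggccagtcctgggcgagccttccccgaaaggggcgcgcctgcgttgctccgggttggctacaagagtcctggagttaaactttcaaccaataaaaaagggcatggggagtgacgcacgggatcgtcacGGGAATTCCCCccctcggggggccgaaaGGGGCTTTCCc
In Nfkbia the match lay from base -29 to base -20, counted from the start site. In Cxcl1, matches on both strands overlapped from -71 to -61. The printed window of Nfkb2 held matches from -39 to -29 and from -11 to -2, and its other windows held them from -236 to -227, from 11 to 20 and from -225 to -216, each counted from its own start site. Tnfaip3 held them from -125 to -116 and from -12 to -3 in 1 of its windows. The windows of Rela and Birc3 held none. A match is a description of the letters in the window, and these data hold no measurement of binding.

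RNA was counted as unique molecular identifiers (UMIs), 1 for each captured molecule, so levels are given as CPM, counts scaled to a common total for each sum, and need no division by gene length. Each mouse and condition had 2 technical replicates, which were added up and entered n as 1 sample. The labels give 3000 sorted cells for most sums, with 2361 for mouse 3 untreated as the fewest and 13114 for mouse 1 untreated as the most. The 16 sums held 557512 (mouse 3 untreated) to 4050342 UMIs (mouse 8 with Bch), and 3 UMIs, the limit that a count of 0 allows, corresponded to 0.703 to 5.24 CPM. Technical replicates split low counts more evenly than independent sampling would, with a variance of 0.613 to 0.729 of the binomial value, so a sum may count a molecule more than once, and counting intervals would be too narrow. Epithelial markers (8 of 8 in the table) summed to 7868 to 10210 CPM, and Lgr5 was at 12.4 to 38.6 CPM. Of 10 immune markers 8 were in the table and summed to 2.28 to 8.96 CPM, and of 7 markers of fibroblasts and endothelium 2 were in the table and summed to at most 2.41 CPM. One sum stood apart for these genes. Mouse 7 with Bch had the highest level among the 16 sums for 6 of the 10 members (Nfkb1, Nfkbia, Tnfaip3, Birc3, Cxcl16 and Cxcl1) and the lowest for Rela. It also had the highest sum of 9 goblet cell markers, 15130 CPM against 3775 to 9897 CPM in the other sums, and the highest sum of 13 dissociation and stress genes, 2222 CPM against 1659 to 2058 CPM. Its sum of 9 crypt stem cell markers was the lowest, 551 CPM against 581 to 903 CPM in the other sums. Its sum of 7 enteroendocrine markers was the highest, 934 CPM against 175 to 870 CPM. The part of these genes in the members' levels was not tested. The changes with Bch of the members that were highest in this sum and passed the filter on low counts are given also without mouse 7, for mice BR7 to BR10. Mouse 3 untreated, the shallowest sum, was lowest for 4 members. In bulk RNA, fewer cells that express a gene and less RNA per cell cannot be told apart.

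The members ranged from well counted to barely counted. Nfkbia, which encodes IkBα, was highest, with a level of 190.7 ± 32.4 CPM (SD, n = 16 sums of 8 mice). Next came Cxcl16, a transmembrane chemokine and scavenger receptor that binds CXCR6, with a level of 56.1 ± 16.7 CPM, and Relb, the partner of p52, with 33.8 ± 8.91 CPM. Nfkbia was above Cxcl16, Cxcl16 above Relb and Relb above Rela in 16 of 16 sums. Rela, the main activating subunit, had a level of 16.1 ± 3.56 CPM. Nfkb1, which encodes p105 and p50, had 14.8 ± 3.80 CPM and Nfkb2, which encodes p100 and p52, had 12.3 ± 4.37 CPM. These neighbours did not separate beyond their spread. Rela was above Nfkb1 in 10 of 16 sums and Nfkb1 above Nfkb2 in 9. Birc3, which encodes the ubiquitin ligase cIAP2, had a level of 7.87 ± 3.34 CPM, above Tnfaip3 in 16 of 16 sums. Tnfaip3, which encodes the ubiquitin-editing enzyme A20, had 2.55 ± 1.30 CPM, the nuclear IkB protein gene Nfkbiz 2.48 ± 2.07 CPM, and Cxcl1, a neutrophil chemokine, 1.82 ± 1.71 CPM. For these 3 genes the order within a sum varied. They held 51 to 88 UMIs each over all 16 sums and 0 to 18 in any sum, with many sums near or under the limit that a count of 0 allows.

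**Figure D1:**
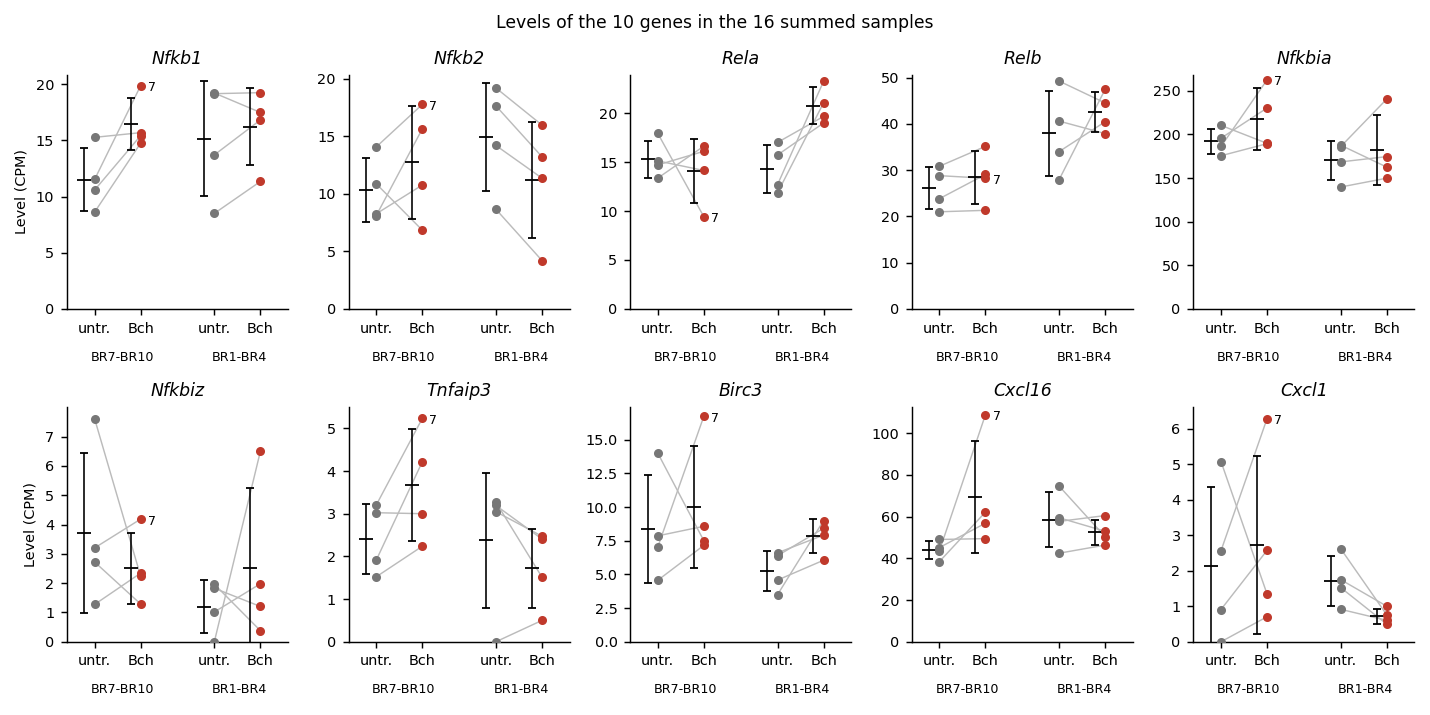
Level in CPM (y axes, linear) of each member in the 16 sums, with untreated sums in grey and Bch sums in red for mice BR7 to BR10 (left) and BR1 to BR4 (right). Lines join the sums of 1 mouse, black bars give the mean ± SD of 4 mice, with lower ends cut off at 0, and 7 marks mouse 7 with Bch, which had the highest Cxcl16 level, 108.8 CPM.

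The question asked of these cells was how muscarinic stimulation changes expression in each set. Paired changes with Bch were tested with edgeR's quasi-likelihood test over all genes that passed a filter on low counts, blocked by mouse, and a gene was called at an adjusted p under 0.05 (Benjamini-Hochberg). Of the members, 7 of 10 passed the filter, and Nfkbiz, Tnfaip3 and Cxcl1 did not. In mice BR7 to BR10, 0 of the 7 members passed the threshold, where 0 of 9515 genes did (0%). At an unadjusted p under 0.05, 360 genes were found (3.78%), among them 1 member, Cxcl16, and DESeq2 called 0 genes, with 123 at an unadjusted p under 0.05. In mice BR1 to BR4, 0 of 7 members passed, against 2 of 9509 genes (0.0210%), and 1 member, Rela, was among the 734 genes (7.72%) with an unadjusted p under 0.05. DESeq2 called 15 genes in that set. The log2 fold change was above 0 for 6 of 7 members in mice BR7 to BR10, where 49.5% of all genes tested were above 0, with a median of 0.18 over the members and -0.0022 over all genes. It was above 0 for 5 of 7 members in mice BR1 to BR4, where 50.3% of all genes were, with medians of 0.12 and 0.0012. Over all 8 mice together, 0 of 7 members passed, where 0 of 10280 genes did (0%), and no member was among the 555 genes (5.40%) with an unadjusted p under 0.05. DESeq2 called 0 genes there, with 366 at an unadjusted p under 0.05.

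**Figure D2:**
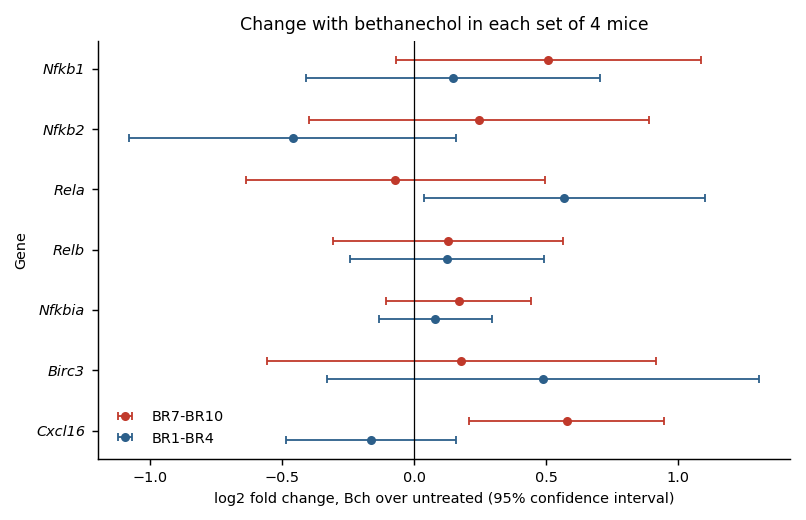
Log2 fold change, Bch over untreated (x axis), of the 7 members that passed the filter on low counts (y axis), for mice BR7 to BR10 (red) and BR1 to BR4 (blue). Points are edgeR estimates from 4 pairs of sums and bars their 95% confidence intervals, which lie above 0 without adjustment for Cxcl16 in mice BR7 to BR10 and for Rela in mice BR1 to BR4.

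Cxcl16 gave the smallest p of the members. In mice 7, 8, 9 and 10 its level was 43.5, 49.0, 45.1 and 38.4 CPM untreated and 108.8, 49.4, 56.8 and 62.1 CPM with Bch. The lowest Bch sum lay just above the highest untreated sum, both from mouse 8, so the groups did not overlap, which held for 2.15% of the genes tested. Mouse 7 with Bch was far above the other sums. The summed goblet cell markers were higher with Bch in mice 7 (9897 to 15130 CPM) and 10 (3775 to 7076 CPM), which had the largest Cxcl16 differences, and lower in mice 8 (6420 to 6109 CPM) and 9 (8696 to 5958 CPM), and their part in the Cxcl16 result was not tested. The log2 fold change of Cxcl16 was 0.58 (standard error 0.18, 95% confidence interval 0.21 to 0.95), with an unadjusted p of 0.00278, rank 16 of 9515 genes, and it did not pass (adjusted p = 0.999 from edgeR). Without mouse 7 the log2 fold change of Cxcl16 was 0.36 (unadjusted p = 0.0798, adjusted p = 0.996 from edgeR), and it stayed above 0 under all 12 alternatives tried. In mice 1, 2, 3 and 4, Cxcl16 was at 42.4, 74.6, 57.7 and 59.4 CPM untreated and at 46.3, 50.3, 60.5 and 52.9 CPM with Bch. Here it was higher in 2 mice and lower in 2, with a log2 fold change of -0.16 (95% confidence interval -0.48 to 0.16, adjusted p = 0.885 from edgeR). Without mouse 2 this value was -0.0002. The summed goblet cell markers were lower with Bch in 4 of 4 mice of this set. Mean Spink4, the largest of them, went from 2903 to 2177 CPM, while Muc2, Tff3, Zg16 and Spdef had higher means with Bch. The difference of the Bch change between the sets was 0.73 on the log2 scale (standard error 0.25, 95% confidence interval 0.23 to 1.24, unadjusted p = 0.00555), rank 38 of 10280 genes, and it did not pass (adjusted p = 1 from edgeR, 0 of 10280 genes called, 0%, and 0 by DESeq2, with 238 at an unadjusted p under 0.05). At an unadjusted p under 0.05, 451 genes (4.39%) differed between the sets, with Cxcl16 the 1 member among them, and without mouse 7 its difference was 0.51 (unadjusted p = 0.0475, adjusted p = 1.000 from edgeR). Over all 8 mice the log2 fold change of Cxcl16 was 0.22 (95% confidence interval -0.07 to 0.51, adjusted p = 0.906 from edgeR), and it ran from 0.07 without mouse 7 to 0.35 without mouse 2. Cxcl16 lies on chromosome 11 of GRCm38 from 70453983 to 70459984, where its exons overlap those of Zmynd15 on the opposite strand. Whether the counting used strand was not stated, and Zmynd15 held 40 UMIs against 1743 for Cxcl16.

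Rela gave the smallest p of the members in the other set. In mice 1, 2, 3 and 4, which are labelled male, it was at 11.9, 17.0, 15.7 and 12.7 CPM untreated and at 21.1, 19.7, 19.0 and 23.3 CPM with Bch. The groups did not overlap, as for 2.85% of the genes tested, and the level was higher with Bch in 4 of 4 mice (8.19% of genes). The log2 fold change was 0.57 (standard error 0.26, 95% confidence interval 0.04 to 1.10, unadjusted p = 0.0369), and it did not pass (adjusted p = 0.595 from edgeR). The unadjusted p was 0.131 without mouse 1 and 0.153 without mouse 4 with edgeR, 0.0555 with library size only, and 0.114 with DESeq2. Summed goblet cell markers were lower with Bch in 4 of 4 mice of this set, though not each gene of the list, as given above. Summed tuft cell markers (6 of 6 in the table) were lower too, at 5.93 to 14.0 CPM untreated and 4.21 to 6.93 CPM with Bch. Mean Dclk1 went from 5.57 to 1.93 CPM, while Trpm5 was higher (1.39 to 1.89 CPM). These genes held 1 (Il25) to 67 (Dclk1) UMIs over all 16 sums, with Pou2f3 at 0 in 11 and Il25 in 15 of them. The sum of the 13 dissociation and stress genes was higher with Bch in 4 of 4 mice of this set. It was at 1695 to 1891 CPM untreated and 1750 to 2058 CPM with Bch. Mean Hspa8 went from 798 to 996 CPM, and Fosb, Hspa1a and Btg2 were higher too. The other genes of this list had lower means with Bch, among them Junb (330 to 277 CPM). The RNA share of cytosolic ribosomal protein genes was higher with Bch in mice 1, 2 and 3 and lower in mouse 4. The median of this share went from 14.3 to 17.3%. The share of mitochondrially encoded genes was higher in mice 1, 2 and 4 and lower in mouse 3. In each of mice BR7 to BR10, summed tuft cell markers were also lower with Bch. They were at 4.84 to 7.61 CPM untreated and 2.24 to 5.15 CPM with Bch, though mean Dclk1 was not lower (1.01 to 1.11 CPM). Summed immune markers were lower there too, at 3.02 to 8.96 CPM and 2.57 to 4.18 CPM. Mean Cd68 went from 3.67 to 1.93 CPM, but Itgam, Csf1r and Laptm5 were higher. Immune genes were sparse, with 89 UMIs for Cd68 and 17 for Lyz2 over all 16 sums. The part of these markers, genes and shares in the members' values was not tested. Rela rested on 9 to 52 UMIs a sum in this set, and its log2 fold change was 0.89 from technical replicate 1 alone and 0.27 from replicate 2 alone. In mice 7, 8, 9 and 10, Rela was at 17.9, 13.4, 14.7 and 15.1 CPM untreated and at 9.42, 16.6, 16.1 and 14.1 CPM with Bch. It was higher in 2 mice and lower in 2, with a log2 fold change of -0.07 (95% confidence interval -0.64 to 0.50, adjusted p = 0.999 from edgeR), and 0.12 without mouse 7. Rela lies on chromosome 19 of GRCm38 from 5637483 to 5648130. The difference between the sets was -0.64 (95% confidence interval -1.41 to 0.13, unadjusted p = 0.102, adjusted p = 1 from edgeR).

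The other subunits varied within both sets. Nfkb1 was at 11.5, 15.3, 8.62 and 10.6 CPM in untreated mice 7 to 10 and at 19.9, 15.7, 14.8 and 15.4 CPM with Bch. It was higher in 4 of 4 mice, as were 5.78% of genes, though the groups overlapped, and the log2 fold change was 0.51 (95% confidence interval -0.07 to 1.09, unadjusted p = 0.0840, adjusted p = 0.999 from edgeR). It was 0.44 without mouse 7, 0.10 from technical replicate 1 alone and 0.91 from replicate 2 alone. In mice BR1 to BR4 the level of Nfkb1 was 15.1 ± 5.13 CPM untreated and 16.2 ± 3.41 CPM with Bch (SD, n = 4 mice each), with a log2 fold change of 0.15 (95% confidence interval -0.41 to 0.70), which was 0.07 without mouse 2 and 0.09 without mouse 4. For Nfkb2 the estimates of the sets had opposite signs. Its level was 8.67, 17.7, 19.2 and 14.2 CPM in untreated mice 1 to 4 and 4.21, 13.2, 16.0 and 11.4 CPM with Bch. Each mouse was lower with Bch (6.86% of genes were lower in 4 of 4), but the mice differed among themselves by more than the change, and the log2 fold change was -0.46 (95% confidence interval -1.08 to 0.16, adjusted p = 0.792 from edgeR). In mice BR7 to BR10, Nfkb2 was at 10.3 ± 2.80 CPM untreated and 12.8 ± 4.91 CPM with Bch (SD, n = 4). Of the 4 mice 3 were higher, and the log2 fold change was 0.25 (95% confidence interval -0.40 to 0.89). It ran from 0.0003 without mouse 9 to 0.57 without mouse 10. The difference between the sets was 0.71 (95% confidence interval -0.18 to 1.59, unadjusted p = 0.114, adjusted p = 1 from edgeR). Exons of Nfkb2 overlap those of Psd on the opposite strand, which held 6 UMIs against 383 for Nfkb2. For Relb, the third most abundant member, the estimates of the sets were close with all mice in. Its log2 fold change was 0.13 (95% confidence interval -0.31 to 0.56) in mice BR7 to BR10, or 0.07 without mouse 9. In mice BR1 to BR4 it was 0.12 (95% confidence interval -0.24 to 0.49), and it ran from -0.0020 without mouse 3 to 0.24 without mouse 4.

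Nfkbia, the feedback inhibitor that is usually among the first genes to follow NF-kB activity, was measured most precisely of the members, from 80 to 809 UMIs a sum. It lies on chromosome 12 of GRCm38 from 55489410 to 55492647, on the minus strand. In mice 7, 8, 9 and 10 it was at 186.3, 175.7, 195.7 and 210.4 CPM untreated and at 262.6, 189.5, 230.4 and 189.9 CPM with Bch. The groups overlapped, mice 7 and 9 with Bch were highest, and mouse 10 was lower with Bch. The log2 fold change was 0.17 (95% confidence interval -0.11 to 0.44, adjusted p = 0.999 from edgeR), and it ran from 0.07 without mouse 7 to 0.28 without mouse 10 (unadjusted p = 0.0374 from edgeR). In mice 1, 2, 3 and 4 it was at 186.1, 187.7, 139.8 and 168.6 CPM untreated and at 240.7, 162.6, 149.9 and 174.6 CPM with Bch. These groups overlapped too, and the log2 fold change was 0.08 (95% confidence interval -0.13 to 0.29, adjusted p = 0.930 from edgeR), which ran from -0.029 without mouse 1 to 0.19 without mouse 2. Over all 8 mice it was 0.12 (95% confidence interval -0.05 to 0.29, adjusted p = 0.906 from edgeR). Of the 7 tested members, Nfkbia had the lowest upper limit of that interval over all 8 mice.

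The other regulators were counted less deeply. Birc3 was at 6.39, 4.58, 3.49 and 6.60 CPM in untreated mice 1 to 4 and at 8.42, 6.05, 9.00 and 7.92 CPM with Bch. All 4 mice were higher with Bch, as for 8.19% of the genes tested, but the groups overlapped. The log2 fold change was 0.49 (95% confidence interval -0.33 to 1.31, adjusted p = 0.863 from edgeR). In mice 7 to 10, Birc3 was at 7.04, 14.0, 4.56 and 7.86 CPM untreated and at 16.7, 7.49, 7.16 and 8.57 CPM with Bch. Mice 7, 9 and 10 were higher with Bch and mouse 8 lower, the log2 fold change was 0.18 (95% confidence interval -0.56 to 0.92), and it was -0.12 without mouse 7. Of the 65-base words in the last 500 bases of Birc3 transcripts, where the primers capture, 4.72% were shared with other genes, among them Birc2, and the other 9 members shared none. Tnfaip3 held 0 to 18 UMIs and Nfkbiz 0 to 15 UMIs a sum. Nfkbiz was highest in mouse 9 untreated with 15 UMIs (7.61 CPM) and in mouse 3 with Bch with 13 UMIs (6.50 CPM), so its extremes lay in opposite conditions. In a fit without the filter, the log2 fold change of Tnfaip3 was 0.54 (95% confidence interval -0.64 to 1.73) in mice BR7 to BR10 and -0.47 (95% confidence interval -1.98 to 1.04) in mice BR1 to BR4. That of Nfkbiz was -0.54 (95% confidence interval -1.75 to 0.66) and 0.35 (95% confidence interval -1.33 to 2.03). Changes of these sizes were not detectable at this depth.

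Cxcl1, which recruits neutrophils through CXCR2, was near the limit of counting. In untreated mice 7, 8, 9 and 10 it held 4, 0, 10 and 3 UMIs and with Bch 6, 3, 3 and 6. In mice 1, 2, 3 and 4 it held 2, 4, 1 and 3 UMIs untreated and 1, 2, 2 and 1 with Bch. Scaled for depth, these were 0.912, 2.62, 1.75 and 1.52 CPM untreated and 0.602, 0.756, 1.00 and 0.495 CPM with Bch. They were lower in 4 of 4 mice, as were 6.86% of the genes that passed the filter. No sum of this set exceeded 4 UMIs, and in the fit without the filter the log2 fold change was -1.19 (95% confidence interval -3.30 to 0.92), so a change was not detectable at this depth. In mice BR7 to BR10 it was 0.41 (95% confidence interval -1.10 to 1.91).

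The untreated sums of the sets were compared as a description of the starting levels, with the same test and no block. Of the 7 members tested, 0 passed the threshold, where 150 of 9159 genes did (1.64%). Relb was at 28.8, 21.0, 23.8 and 30.8 CPM in untreated mice 7 to 10 and at 40.6, 34.0, 28.0 and 49.3 CPM in untreated mice 1 to 4. The sets overlapped, with a log2 difference, BR7-BR10 over BR1-BR4, of -0.58 (standard error 0.22, unadjusted p = 0.0109, adjusted p = 0.203 from edgeR). For Cxcl16 the log2 difference was -0.43 (standard error 0.19, unadjusted p = 0.0319, adjusted p = 0.328 from edgeR), again with overlapping sums, and it was -0.27 without mouse 2 (unadjusted p = 0.202 from edgeR). Markers of cell types were summed over the same untreated sums. Crypt stem cell markers (9 of 9 in the table) summed to 607 to 705 CPM in mice BR7 to BR10 and 790 to 903 CPM in mice BR1 to BR4, without overlap, and the other lists overlapped. Single genes of the stem cell list differed in direction. Mean Ascl2 (260 against 365 CPM) and Sox9 (86.0 against 126 CPM) were lower in mice BR7 to BR10. Mean Smoc2 (124 against 112 CPM) and Rgmb (45.9 against 34.8 CPM) were higher there. Enteroendocrine markers (7 of 7) summed to 339 to 870 CPM and 178 to 360 CPM, colonocyte markers (10 of 10) to 937 to 1700 CPM and 724 to 1279 CPM, goblet cell markers (9 of 9) to 3775 to 9897 CPM and 4912 to 7480 CPM, and tuft cell markers to the values given above. Their part in the differences between the sets was not tested. Relb and Cxcl16 were among the 6.05% of genes that were lower at an unadjusted p under 0.05. Across the sets, the untreated level of Cxcl16 was thus 44.0 ± 4.39 CPM in mice BR7 to BR10 and 58.5 ± 13.1 CPM in mice BR1 to BR4, against 69.3 ± 26.9 and 52.5 ± 5.96 CPM with Bch (SD, n = 4 mice each). Because the Bch change and its difference between the sets use the same untreated sums, these values are not separate evidence. The other 5 tested members had log2 differences from -0.47 (Nfkb2) to 0.53 (Birc3, which was 0.21 without mouse 8). In the fit without the filter the log2 difference was 1.36 for Nfkbiz (95% confidence interval -0.03 to 2.74, unadjusted p = 0.0552, adjusted p = 0.570 from edgeR), -0.17 for Tnfaip3 (-1.47 to 1.13) and 0.34 for Cxcl1 (-1.21 to 1.90).

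Among themselves the members varied loosely. Over the 16 sums, after the mean of each set was taken off, Pearson's r of log2 CPM for the 21 pairs of the 7 tested members ran from -0.44 to 0.56, with a median of 0.020. The highest was Nfkb1 with Birc3 and the lowest Rela with Cxcl16. The genes whose pattern was most like that of Nfkbia among 10279 others were Tmem106a (r = 0.86), Krt87 (0.85) and Fdps (0.83), and for Cxcl16 they were Clp1 (0.83), Far1 (0.82) and Plk2 (0.82), by the same measure. The sums share mice and depth, and mouse 7 with Bch was highest for both members, so these values describe these libraries, and r was not computed without it.

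A wider list of 122 NF-kB pathway genes, from receptors to targets, was counted beside the members, of which 114 were in the table. In mice BR7 to BR10, 69 passed the filter, 0 passed the threshold, 39 were above 0 and 30 below, and the median log2 fold change was 0.06. Of all genes tested there, 0% passed and 49.5% were above 0. In mice BR1 to BR4, 66 passed the filter, 0 passed the threshold, 23 were above 0 and 43 below, and the median was -0.05. Of all genes tested in that set, 0.0210% passed and 50.3% were above 0. The difference of the Bch change between the sets was above 0 for 50 of 72 pathway genes, with a median of 0.17 and 0 past the threshold, where 5115 of all 10280 genes were above 0, with a median of -0.0016. By role, the 19 receptors and adaptors tested in mice BR7 to BR10 had a median of 0.12, the 14 kinases and ubiquitin assembly genes 0.05, the 5 other factors and IkB proteins 0.05, the 10 other inhibitors -0.05, the 15 other targets 0.15 and the 6 other epithelial chemokines 0.09. The same groups in mice BR1 to BR4 had medians of 0.02, -0.08, -0.04, 0.07, -0.06 and -0.21. In mice BR7 to BR10 the smallest p-values among higher genes belonged to Tnip3, a partner of A20, with a log2 fold change of 0.50 (adjusted p = 0.999 from edgeR), and Hif1a, a hypoxia factor and NF-kB target, with 0.63 (adjusted p = 0.999). Among lower genes they belonged to the adaptor Traf2 (-0.36) and to Commd1 (-0.17), which promotes the removal of RelA. Without mouse 10, Traf2 was at -0.02 and Commd1 at -0.30, without mouse 8 Traf2 was at -0.61, and without mouse 7 Commd1 was at -0.06. For Tnip3 the value ran from 0.41 without mouse 7 to 0.60 without mouse 8. For Hif1a it ran from 0.44 without mouse 8 to 0.81 without mouse 9. Technical replicate 1 alone gave 0.44 for Hif1a and replicate 2 alone 0.85. In mice BR1 to BR4 the smallest p-values belonged to Nfkbil1, an IkB-like gene (0.45, adjusted p = 0.605 from edgeR), and Gadd45b, a stress-induced target (0.74), among higher genes. Leaving out 1 mouse gave 0.32 (without mouse 3) to 0.81 (without mouse 1) for Nfkbil1 and 0.31 (without mouse 2) to 1.29 (without mouse 1) for Gadd45b. The lower genes there were Tab1, which activates the kinase TAK1 (-0.88, adjusted p = 0.572 from edgeR), and Pigr, the carrier of IgA across the epithelium (-0.22, adjusted p = 0.581). None of these 8 passed the threshold. In the untreated comparison, 1 of 67 pathway genes passed, where 1.64% of all genes did. It was Ccnd1, a cell cycle gene, which was lower in mice BR7 to BR10 (log2 difference -0.61, adjusted p = 0.00885 from edgeR, and 0.0695 without mouse 2) and is named after its value was seen.

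**Figure D3:**
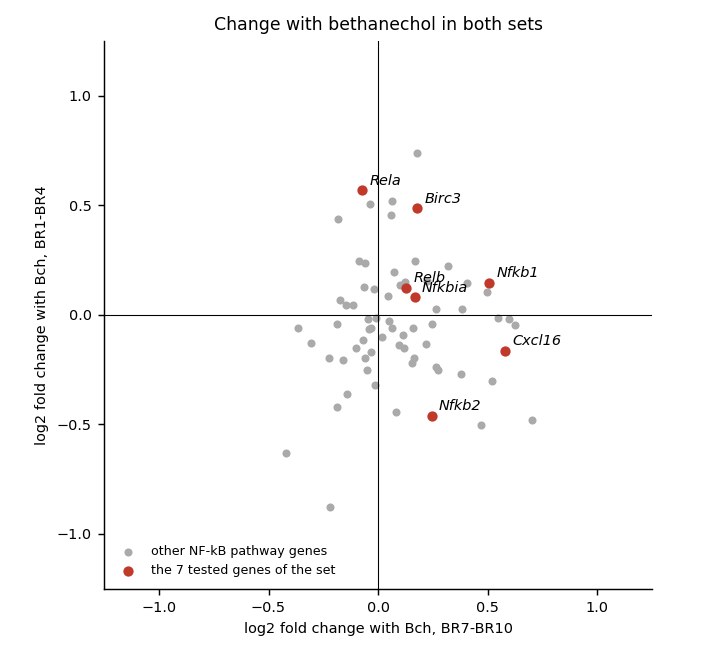
Log2 fold change with Bch in mice BR7 to BR10 (x axis) and BR1 to BR4 (y axis), which share no samples, for the 7 tested members (red, named) and the 63 other pathway genes tested in both sets (grey). The grey points surround 0 and the members lie among them, with Cxcl16 and Nfkb1 to the right and Rela and Birc3 toward the top.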

How the data were processed

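Lgr5-EGFP+ cells of colonoids from 8 mice were profiled untreated and with Bch, in 32 libraries. The authors primed cDNA from poly(A) tails with sample barcodes and UMIs, ran the Drop-seq pipeline on GRCm38 with GENCODE gene models, and deposited the UMI counts per gene as raw values. How strand and reads with several matches were handled was not given in the sources used here. In technical replicate 2, 1520 genes were blank, none of them a member, and were read as 0. All sample columns were mapped from their names.

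Counts of the technical replicates were summed. In R 4.3.3 with edgeR 4.0.16, genes passed filterByExpr by group (minimum count 10), TMM factors were computed, and a robust quasi-likelihood fit with mouse and treatment was tested, with p-values adjusted over all genes tested (Benjamini-Hochberg). The difference between sets was an interaction term over 16 sums. The study's own tool, DESeq2, was run as an alternative (version 1.42.0). Other alternatives were the fit without the mouse, DESeq2's size factors, library size alone, no filter, a filter of 1 CPM in 4 sums, each technical replicate alone, and leaving out each mouse. CPM use TMM-scaled totals, and ratios of single mice a prior count of 2. Confidence intervals are at 95%. The limit for a count of 0 was 3 UMIs and covers counting error only. The steps were tested on simulated data.

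The number in the labels marks 1 animal, which pairs the samples. Deviations of paired sums from their group means had correlations across genes of 0.0735, 0.165, -0.0019 and -0.0218 in mice 7 to 10 and of 0.256, 0.0450, 0.0554 and 0.0993 in mice 1 to 4. Members, pathway list and tests were chosen with earlier results of these data known. By rule, the text names all 10 members, the 2 pathway genes per direction with the smallest p in each set, and for Nfkbia and Cxcl16 the 3 genes most correlated over the 16 sums. Positions are from GENCODE gene models of GRCm38 and promoter windows from RefSeq (GRCm38.p6). Other series files were not analysed here.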

Additional observations from a re-analysis of the deposited data

Results flagged for a closer look

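In groups of 4 mice, the level of each member and each named pathway gene was checked for a sum far from the other 3, by Dixon's test at the 95% level, and 4 of 72 groups had one. Chance gives about 1 in 20. Tnfaip3 was at 0.0 CPM, with no UMI, in mouse 3 untreated, against 3.05 to 3.27 CPM in mice 1, 2 and 4 untreated, and the limit that a count of 0 allows was 5.24 CPM in that sum. Birc3 was at 16.7 CPM in mouse 7 with Bch, against 7.16 to 8.57 CPM in mice 8, 9 and 10 with Bch. The adaptor gene Traf2 was at 40.2 CPM in mouse 3 untreated, against 25.5 to 26.9 CPM in mice 1, 2 and 4 untreated, and Commd1 was at 282 CPM in mouse 10 with Bch, against 223 to 231 CPM in mice 7, 8 and 9 with Bch.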

How the results depend on the processing

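Of 487 values of the tested members under alternatives, 472 kept their direction, 15 changed sign, and none of those with an adjusted p passed 0.05. DESeq2 gave no adjusted p for the 7 tested members in mice BR1 to BR4, or for Birc3 between untreated sets, so it decided no call there. In the fit with no replicate block, 0 genes were called in mice BR1 to BR4, against 2 with the mouse as a block, and dropping the pairing changed no other call. For that set the count was 15 with DESeq2, 1 with library size only, 88 with no filter, 30 with the 1 CPM filter, 9 from technical replicate 1, and 0 to 19 without 1 mouse (0 without mouse 1 or 2, 5 without mouse 3, 19 without mouse 4). With no filter, 1 gene was called for the difference between sets, 15 over all 8 mice (1 from technical replicate 1) and 234 between untreated sets, against 150. Leaving out 1 mouse gave 0 to 4 genes in mice BR7 to BR10 (0 without mouse 7, 3 without 8, 4 without 9 and 1 without 10), 0 to 1 over all 8 mice (1 without mouse 10) and 74 to 210 between untreated sets (74, 97, 80, 93, 97 and 92 without mice 2, 3, 4, 7, 8 and 9). In mice BR7 to BR10, the log2 fold change of Rela was 0.19 from technical replicate 1 and -0.21 to 0.12 without 1 mouse, and that of Birc3 -0.12 to 0.63. In mice BR1 to BR4 that of Relb was -0.0020 to 0.24 and that of Nfkbia -0.029 to 0.19. The difference between sets for Relb, close to 0, was 0.0041 with DESeq2's size factors, 0.034 with library size only, 0.11 from technical replicate 2 and -0.10 to 0.15 without 1 mouse. For Nfkbia it was -0.022 to 0.21 and for Birc3 -0.61 to 0.13. The cause of these shifts was not tested. Depth limits Tnfaip3, Nfkbiz and Cxcl1 most.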
